A study of Homo sapiens with 26 samples.

Results

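Antibodies against tumor cells need an antigen on the cell surface, and 9 genes that encode such antigens were followed here through 26 single cell-derived cell lines (SCDCLs) of pancreatic ductal adenocarcinoma. The 9 genes are EPCAM, CEACAM5, CEACAM6, MSLN, PSCA, NECTIN4, F3, MET and CD276. They were chosen by name as targets of drug conjugates, antibodies or cell therapies, with earlier results of these data known. All 9 are among the 41078 genes of the deposited table. Each SCDCL was grown from 1 cell of an established line, so each stands for 1 clone, and 1 mRNA library was sequenced from each. The labels give 12 libraries as BxPC3, a line described as classical, and 14 as Panc-1, described as basal-like. No other genotype or allele is given. All were grown in the same medium, and RNA was taken from cultures near confluence. Gemcitabine is named as the treatment of every sample, whereas the methods describe the drug only for separate viability assays. Levels are TPM, a transcript abundance per length and relative to the whole library, which the authors estimated for each gene, so that genes can be set beside each other within a library.

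The libraries were also divided by SMAD4, which encodes a transducer of transforming growth factor beta signals and is deleted in BxPC3 but present in Panc-1. In 12 libraries SMAD4 was at 0 to 0.0440 TPM, and in the other 14 it was at 28.1 to 52.2 TPM. By label, 5 of the 12 are BxPC3 and 7 are Panc-1, and the 14 hold 7 of each. SMAD4 therefore contradicted the line named in the label for 14 libraries, 7 under each name. The name of the line is therefore used only as a label, and the groups are called the SMAD4-low libraries (12) and the SMAD4-expressing libraries (14). No library was moved between labels. The total ranged from 27035724 to 34945608 estimated counts per library and overlapped between the groups.

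The 9 proteins have different roles. EPCAM is a homophilic adhesion protein of simple epithelia that is cut by proteases at the membrane. CEACAM5, the carcinoembryonic antigen, and CEACAM6 are immunoglobulin-like proteins held in the membrane by a glycosylphosphatidylinositol (GPI) anchor, as are mesothelin (MSLN) and prostate stem cell antigen (PSCA). NECTIN4 is an adhesion protein of the nectin family. F3, tissue factor, is the receptor for coagulation factor VII. MET is the receptor tyrosine kinase for hepatocyte growth factor, and CD276, also called B7-H3, is a relative of the immune checkpoint ligands. What an antibody meets is protein at the surface, whereas the values here are mRNA levels.

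By GENCODE 44 on GRCh38, CEACAM5 (ENSG00000105388) spans chromosome 19 from 41708585 to 41730433, and CEACAM6 (ENSG00000086548) from 41750977 to 41772211, on the same strand. F3 (ENSG00000117525) spans chromosome 1 from 94529173 to 94541759, and NECTIN4 (ENSG00000143217) from 161070998 to 161089558, both on the minus strand. EPCAM (ENSG00000119888) is on chromosome 2 from 47345158 to 47387601, MET (ENSG00000105976) on chromosome 7 from 116672196 to 116798377, CD276 (ENSG00000103855) on chromosome 15 from 73683966 to 73714514 and MSLN (ENSG00000102854) on chromosome 16 from 760734 to 768865. Both CEACAM genes overlap a further annotated gene (ENSG00000267881) on their own strand, and the CEACAM genes resemble each other in sequence, so the assignment of reads among them is uncertain. NECTIN4 overlaps NECTIN4-AS1 on the opposite strand. The libraries kept the strand, but whether the assignment of reads used it is not stated.

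Promoters of 6 of the 9 genes were found in RefSeq (GRCh38.p14): those of F3, NECTIN4, MET, CD276, CEACAM5 and CEACAM6. The 4 printed here belong to the antigens of this set that differed most between the 2 groups of libraries. Each runs from 250 bases before to 50 bases after the transcript start, 5′ to 3′ on the strand of the gene. F3 is at chr1:94541710-94542009 (minus), NECTIN4 at chr1:161089509-161089808 (minus), CEACAM5 at chr19:41708376-41708675 (plus) and CEACAM6 at chr19:41755280-41755579 (plus). Capitals mark matches, on either strand, of 4 short sequences: CACCTG (an E-box), TGANTCA (the AP-1 motif), GGGCGG (the GC box) and TATAAA (the TATA box).
F3: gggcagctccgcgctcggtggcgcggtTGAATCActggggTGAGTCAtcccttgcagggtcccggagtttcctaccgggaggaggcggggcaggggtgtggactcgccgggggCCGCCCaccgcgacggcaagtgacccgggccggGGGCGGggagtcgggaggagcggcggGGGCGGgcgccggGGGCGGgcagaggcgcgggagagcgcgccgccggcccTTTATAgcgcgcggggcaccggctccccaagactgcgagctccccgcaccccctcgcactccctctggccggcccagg
NECTIN4: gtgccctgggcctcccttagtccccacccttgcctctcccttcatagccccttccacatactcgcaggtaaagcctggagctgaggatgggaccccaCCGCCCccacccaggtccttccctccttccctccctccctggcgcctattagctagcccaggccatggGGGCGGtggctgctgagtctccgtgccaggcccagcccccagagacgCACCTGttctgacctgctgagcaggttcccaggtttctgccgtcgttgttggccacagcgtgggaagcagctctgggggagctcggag
CEACAM5: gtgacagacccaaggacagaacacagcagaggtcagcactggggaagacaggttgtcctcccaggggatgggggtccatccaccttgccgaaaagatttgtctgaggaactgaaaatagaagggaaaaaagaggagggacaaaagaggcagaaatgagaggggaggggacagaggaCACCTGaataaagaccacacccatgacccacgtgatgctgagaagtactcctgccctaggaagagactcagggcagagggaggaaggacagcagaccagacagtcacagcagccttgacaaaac
CEACAM6: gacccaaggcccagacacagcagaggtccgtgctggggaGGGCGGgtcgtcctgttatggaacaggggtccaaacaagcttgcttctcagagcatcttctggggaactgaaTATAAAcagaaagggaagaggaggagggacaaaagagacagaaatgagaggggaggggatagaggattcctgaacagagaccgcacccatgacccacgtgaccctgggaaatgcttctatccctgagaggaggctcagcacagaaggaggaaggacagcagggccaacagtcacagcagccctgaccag
The F3 window held TGANTCA 2 times, GGGCGG 4 times and TATAAA once, 28 bases before the start. NECTIN4 held CACCTG once and GGGCGG 2 times. CEACAM5 held CACCTG once and CEACAM6 held GGGCGG and TATAAA once each. Of 35116 promoter windows of this length, 20.59% held CACCTG, 7.709% TGANTCA, 44.95% GGGCGG and 11.53% TATAAA, and overlaps between motifs were not removed. The CEACAM5 and CEACAM6 windows were identical at 230 of 292 aligned bases (78.77%). A match describes the letters only.

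**Figure D1:**
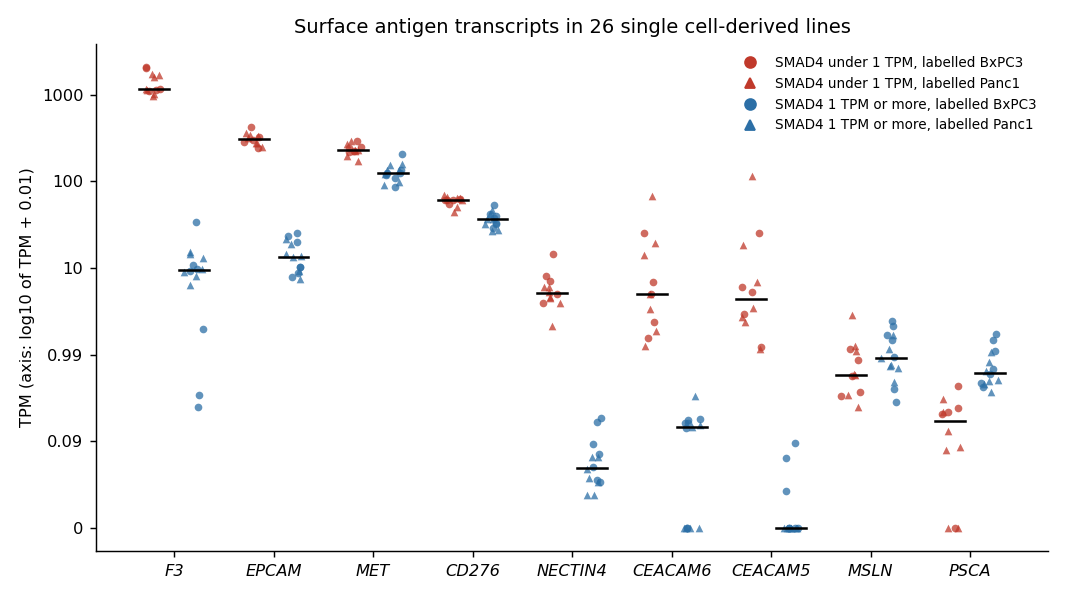
Level of the 9 antigen genes in each of 26 libraries, as TPM on a log axis (log10 of TPM + 0.01), with red for SMAD4 under 1 TPM (12 libraries) and blue for 1 TPM or more (14 libraries). Circles are libraries labelled BxPC3, triangles those labelled Panc-1, and bars are medians. The red and blue points do not overlap for F3, EPCAM, NECTIN4, CEACAM6 and CEACAM5.

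The SMAD4-low libraries held 5 of the antigens at higher levels, without overlap between the groups: EPCAM, CEACAM5, CEACAM6, NECTIN4 and F3. MET and CD276 were present in all 26 libraries and were less than 2-fold higher in the SMAD4-low ones. MSLN was low throughout with no difference that passed the test over all libraries, and PSCA was near its detection limit. The test was the quasi-likelihood F test of edgeR with Benjamini-Hochberg adjustment over all genes, and a gene was called at an adjusted p under 0.05 and a fold change over 2. The filter on low counts kept 8 of the 9 antigens and left out PSCA. All 5 called antigens were higher in the SMAD4-low libraries, where 20% of the 16007 genes tested were called higher and 14.6% were higher with TPM ranges that did not overlap. Since a gene that is silent in 1 group passes the filter only through the other, the 8 tested are not a sample of surface antigens. Each library is 1 culture of 1 clone. The p-values therefore set the difference between groups against the spread of these libraries within them, and part of that spread may be technical. SMAD4 state and line of origin cannot be told apart in this division, and clones of 1 line are not independent replicates of a SMAD4 state.

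EPCAM was at 239 to 424 TPM (median 308) in the 12 SMAD4-low libraries and at 7.49 to 25.5 TPM (median 13.5) in the 14 SMAD4-expressing libraries. The lowest SMAD4-low library was 9.39 times the highest of the others. The log2 fold change was 4.45 (SE 0.206), with an adjusted p of 2.97e-17 by edgeR. EPCAM was thus never at 0 in a library, and its 2 ranges lay far apart. Within the labels the difference was of the same size, with log2 fold changes of 4.402 among the libraries labelled BxPC3 and 4.50 among those labelled Panc-1.

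F3 was the most abundant of the 9 in the SMAD4-low libraries, at 956 to 2084 TPM (median 1156). In the SMAD4-expressing libraries it was at 0.237 to 33.7 TPM (median 9.49). The lowest level in the first group was 28.4 times the highest in the second, and the log2 fold change was 7.13 (SE 0.51, edgeR adjusted p = 5.65e-13). F3 also differed among the SMAD4-expressing libraries themselves, by 142-fold from library 23 to library 17. Libraries 23, 18 and 19 were at 0.237, 0.333 and 1.97 TPM, and the other 11 were between 6.304 and 33.7 TPM. All 3 low libraries carry the label BxPC3, as does the highest.

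NECTIN4 was low in both groups but did not overlap between them. It was at 2.12 to 14.4 TPM (median 5.10) in the SMAD4-low libraries and at 0.0138 to 0.173 TPM (median 0.0392) in the others, where no library exceeded 11.1 estimated counts. The log2 fold change was 6.63 (SE 0.34, edgeR adjusted p = 3.89e-16). Library 21 was the highest, at 14.4 TPM, followed by library 24 at 8.06 TPM, and library 6 was the lowest.

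CEACAM5 was found in all 12 SMAD4-low libraries and in 3 of the 14 others. The SMAD4-low libraries fell between 1.16 and 114 TPM, with a median of 4.35. In the SMAD4-expressing libraries 11 were at 0 and the others reached at most 0.0844 TPM, or 8.25 estimated counts over all 14. A count of 0 allows up to 3 counts, which for CEACAM5 is 0.0511 to 0.0624 TPM in these libraries and covers counting error only. The lowest SMAD4-low library was 13.8 times the highest other. The fitted log2 fold change of 10.09 (SE 0.96, edgeR adjusted p = 2.01e-10) rests on so few counts in 1 group that its size depends on the model: it was 8.202 among libraries labelled BxPC3 and 13.17 among those labelled Panc-1, where every SMAD4-expressing library was at 0. Without library 5 it was 8.84, and without library 23, the highest of the others, it was 10.90.

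CEACAM6 followed the same division. It was at 1.25 to 66.9 TPM (median 5.02) in the SMAD4-low libraries. In the others it was at 0 to 0.320 TPM, with 6 of 14 at 0. There 3 estimated counts would be 0.1002 to 0.111 TPM, but these counts are scaled by length and are not reads. Library 13, the highest of the others, had 8.45 estimated counts and a mean of 1.5 over 4 repeat quantifications that redraw its reads. The level given by 3 counts is thus too low a bound for CEACAM6. The lowest SMAD4-low level was 3.91 times the highest other. The log2 fold change was 7.004 (SE 0.73, edgeR adjusted p = 1.08e-09). It was 6.268 without library 5, and 9.35 with counts remade from the transcript length of each library, an alternative added after the data were seen. The effective length behind the CEACAM6 values had a median of 2254 bases in the SMAD4-low libraries and 575 bases in the SMAD4-expressing ones, where few reads decide it.

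MET and CD276 were shared by both groups. MET was at 171 to 295 TPM (median 228) in the SMAD4-low libraries and at 86.3 to 208 TPM (median 126) in the others. The groups overlapped, since library 20, at 208 TPM, was above 2 of the 12, and the other 10 of the 12 were above every SMAD4-expressing library. CD276 was at 44.5 to 69.7 TPM (median 61.0) against 26.33 to 52.9 TPM (median 37.1), and again 10 of 12 lay above the highest of the others. By edgeR the log2 fold changes were 0.89 (SE 0.115, adjusted p = 6.41e-08) for MET and 0.73 (SE 0.098, adjusted p = 1.46e-07) for CD276. Both differences passed the test on p alone, as 38% of all genes did in this direction, and neither reached 2-fold. In the 14 SMAD4-expressing libraries MET was the most abundant antigen of the 9 and CD276 the next, and MET exceeded CD276 in 14 of 14.

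MSLN did not separate the groups. It was at 0.239 to 2.83 TPM (median 0.577) in the SMAD4-low libraries and at 0.272 to 2.42 TPM (median 0.906) in the others. Only 4 of the 12 and 6 of the 14 reached 1 TPM. The log2 fold change was -0.39 (SE 0.365, edgeR adjusted p = 0.328), with a 95% interval from -1.11 to 0.32. It was -1.04 among the libraries labelled BxPC3 and 0.14 among those labelled Panc-1, and neither passed the test. The highest MSLN level in the SMAD4-low libraries was that of library 4, and without it the log2 fold change was -0.76 and passed on p alone (edgeR adjusted p = 0.0423), short of 2-fold. Without library 17, the highest of the others, it was -0.25.

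PSCA (ENSG00000167653, GRCh38 chromosome 8 from 142670308 to 142682725, overlapped by JRK on the opposite strand) was the least abundant antigen in the SMAD4-low libraries. It was at 0 to 0.430 TPM there (median 0.159, with 3 of 12 at 0) and at 0.356 to 1.70 TPM (median 0.611) in the SMAD4-expressing libraries. The groups overlapped, but 12 of the 14 were above every SMAD4-low library. No library exceeded 26.9 estimated counts, and 3 counts would be 0.189 to 0.206 TPM in the libraries at 0. Without the filter on low counts PSCA was called lower in the SMAD4-low libraries, with a log2 fold change of -2.25 (SE 0.45, edgeR adjusted p = 7.96e-05). It was the only one of the 9 with its difference called in that direction, and at these levels it is a difference among few reads.

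**Figure D2:**
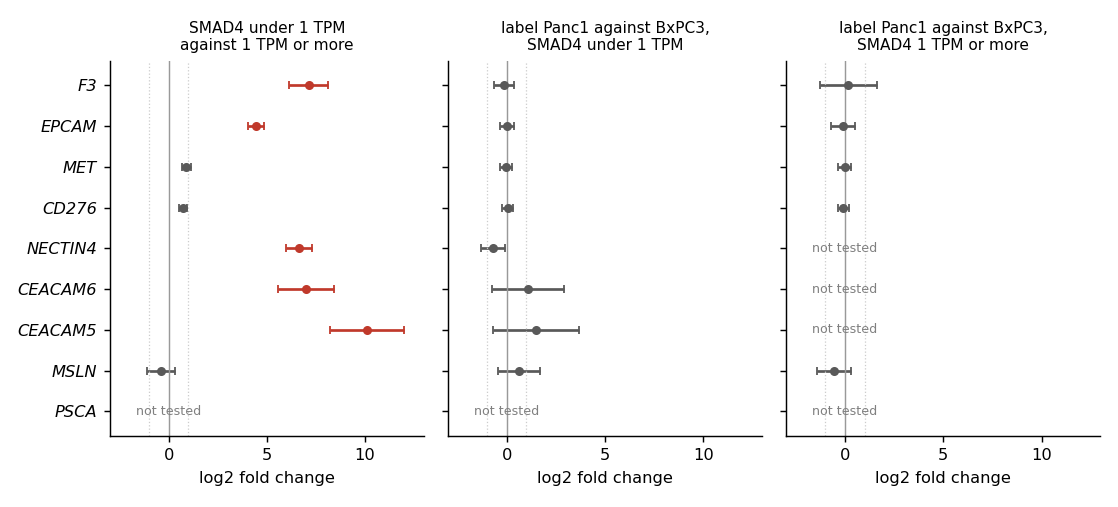
Log2 fold change of each antigen gene by edgeR (points) with 95% intervals (bars, 1.96 SE), for SMAD4 under 1 TPM against 1 TPM or more (left, positive is higher with SMAD4 under 1 TPM) and for the label Panc-1 against BxPC3 within each group (middle and right, positive is higher with the label Panc-1). Red marks genes called at an adjusted p under 0.05 and over 2-fold (dotted lines). The 5 called genes lie at 4.45 or above in the left panel, and none is called in the others.

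Within a library the antigens kept a steep order of abundance, which TPM allows to be compared between genes. In the SMAD4-low libraries the medians ran from F3 (1156 TPM) through EPCAM (308), MET (228) and CD276 (61.0), and each exceeded the next in 12 of 12 libraries. NECTIN4 (5.10), CEACAM6 (5.02) and CEACAM5 (4.35) followed and could not be ordered, since NECTIN4 exceeded CEACAM6 in 6 of 12 and CEACAM6 exceeded CEACAM5 in 7 of 12. In the SMAD4-expressing libraries the order was MET (126 TPM), CD276 (37.1), EPCAM (13.5) and F3 (9.49), and EPCAM exceeded F3 in 11 of 14. MSLN and PSCA came next there, with MSLN above PSCA in 9 of 14. F3 was therefore first in 1 group and below MET, CD276 and EPCAM in the other.

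Among the SMAD4-low libraries the clones differed most in CEACAM5 and CEACAM6. The SD of log2(TPM + 1) was 1.67 for CEACAM5 and 1.54 for CEACAM6, against a median of 0.297 over 14095 genes with a median of at least 1 TPM, and 0.277% and 0.433% of those genes had a larger SD. The median SD over 4 repeat quantifications of 1 library, which kallisto makes by redrawing its reads and which measure counting and assignment error, was 0.063 for CEACAM5. This error holds no variance of culture or library preparation, so it cannot be set against the spread to tell whether clones differ. NECTIN4 had an SD of 0.56 and F3 of 0.40, whereas EPCAM (0.23), MET (0.22) and CD276 (0.18) varied less than the median gene. Without library 5 the SD of CEACAM5 was 1.16, and the scaled median absolute deviation over all 12 libraries, which gives little weight to extreme libraries, was 0.90 for CEACAM5 and 1.71 for CEACAM6.

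Among the SMAD4-expressing libraries F3 had the largest SD of the 4 antigens with a median of at least 1 TPM, but not the largest median absolute deviation. Its SD was 1.36, and 0.554% of 13532 genes had a larger one, where the median gene had 0.286. EPCAM had an SD of 0.57 in this group, against 0.23 in the SMAD4-low libraries. By the scaled median absolute deviation the order turned, with 0.77 for EPCAM and 0.68 for F3, whose 3 low libraries then count for little. MET (0.33) and CD276 (0.28) were close to the median gene. With 1 library for each clone, variation between clones and between cultures cannot be told apart, and in RNA from a whole culture fewer expressing cells and less RNA per cell cannot be told apart either.

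**Figure D3:**
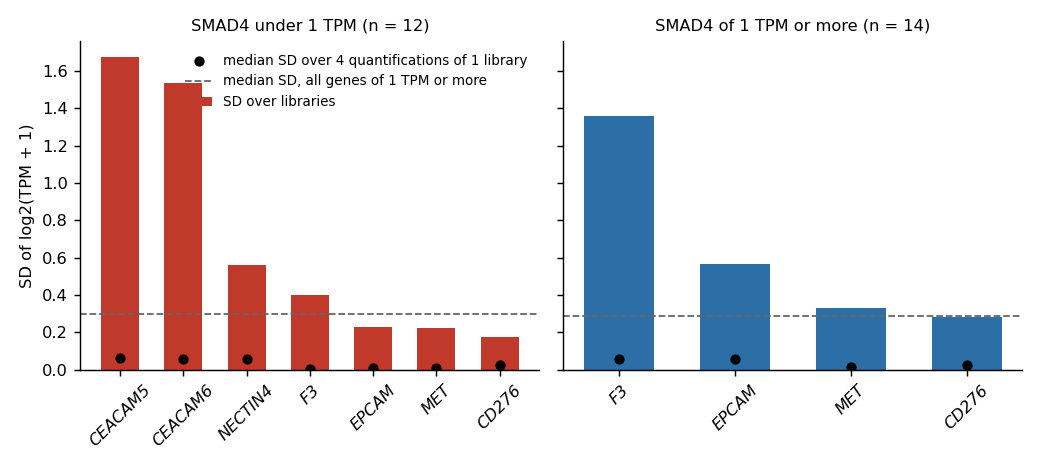
SD of log2(TPM + 1) over libraries (bars) for the antigen genes with a median of at least 1 TPM, in the 12 libraries with SMAD4 under 1 TPM (left) and the 14 others (right). Dots are the median SD over 4 repeat quantifications of a single library, and the dashed line is the median SD of all genes of at least 1 TPM, 0.297 on the left and 0.286 on the right.

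CEACAM5 and CEACAM6 varied together. In order of CEACAM5, libraries 4, 16, 2, 6, 21 and 1 had 1.16, 1.22, 2.36, 2.68, 2.93 and 3.43 TPM of CEACAM5 and 1.25, 1.56, 1.86, 3.33, 2.36 and 5.06 TPM of CEACAM6. Libraries 24, 26, 3, 7, 25 and 5 had 5.276, 6.04, 6.78, 18.34, 25.26 and 114 TPM of CEACAM5 and 6.86, 4.98, 13.99, 19.6, 25.1 and 66.9 TPM of CEACAM6. Libraries 7, 25 and 5 were the 3 highest for both genes, and they carry both labels. Over the 12 libraries Pearson's r of log2(TPM + 1) was 0.968 and Spearman's rho 0.972, and r was 0.942 without libraries 5 and 25. The ratio of CEACAM5 to CEACAM6 ran from 0.485 in library 3 to 1.71 in library 5, with a median of 0.932. Since the 2 genes share sequence, reads of 1 assigned to the other would also bring their values together, and the part of this was not tested.

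**Figure D4:**
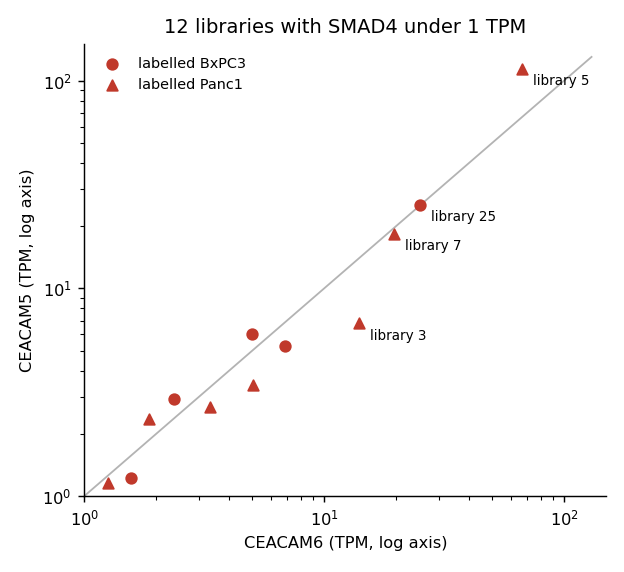
CEACAM5 against CEACAM6 in the 12 libraries with SMAD4 under 1 TPM (both axes TPM, log scale), with circles for the label BxPC3 and triangles for Panc-1. The line marks equal levels. The points follow it from 1.16 to 114 TPM of CEACAM5, with library 3 farthest below it and library 5 above.

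CEACAM1, a transmembrane member of the family and also a neighbour in sequence, did not share this order. It was at 11.9 to 163 TPM in the SMAD4-low libraries and at 0.0346 to 1.47 TPM in the others (log2 fold change 7.81, SE 0.503, edgeR adjusted p = 4.63e-14), and r with CEACAM5 was -0.09 over the 12 libraries. CEACAM19, at 1.78 to 12.4 against 0.0826 to 1.83 TPM, was also called higher. These were the 2 of 10 other family members with enough reads to test. The 8 others had medians of at most 0.0804 TPM in both groups.

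Other pairs of antigens went both ways. In the SMAD4-low libraries the 21 pairs of the 7 antigens with a median of at least 1 TPM had r from -0.77 to 0.97, with a median of 0.01. The lowest value was that of CEACAM5 and MET (r = -0.77, rho = -0.64), and r was -0.53 without libraries 5 and 25. CEACAM6 and MET were close to it (r = -0.74, and -0.52 without these libraries). CD276 had an r of -0.66 with CEACAM5 and -0.65 with CEACAM6, which came to 0.06 and -0.13 without libraries 5 and 25. EPCAM and CD276 had an r of 0.59, and 0.73 without libraries 26 and 25. MET and CD276 had an r of 0.76 and 0.54 without libraries 5 and 1. Library 5 was the highest in CEACAM5 and CEACAM6 and the lowest of the 12 in MET and CD276, at 171 and 44.5 TPM. In the SMAD4-expressing libraries the 6 pairs of EPCAM, F3, MET and CD276 lay between -0.41 and 0.50. These are descriptions over 12 or 14 libraries that share their preparation.

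The genes with the pattern most like each antigen were then listed. Likeness was Pearson's r of log2(TPM + 1) over the 12 SMAD4-low libraries among 10959 genes with a median of at least 5 TPM, and the highest of so many values is high by selection. After CEACAM6, CEACAM5 was most like NQO2, a quinone reductase (r = 0.96), and RCAN3 (0.86), and CEACAM6 was most like NQO2 (0.91), DDAH2 (0.90) and NIPSNAP1 (0.87). EPCAM went with EPHX4 (0.94), BSG (0.91), which encodes the surface protein basigin, and REEP5 (0.90). NECTIN4 went with PRR15 (0.91), the adaptor gene GRB10 (0.90) and HNMT (0.90), and F3 with TMEM267 (0.90), DNAJB11 (0.87) and FUT8 (0.85). MET was most like CLCC1 (0.93), TLR2 (0.91) and PTX3 (0.89), and CD276 had r of 0.89 with MFSD1 and 0.86 with C12orf57. Spearman's rho was lower for some of these genes, at 0.80 and 0.72 for NQO2 with CEACAM5 and CEACAM6. It was 0.63 and 0.62 for DNAJB11 and FUT8 with F3, and 0.93 for BSG with EPCAM.

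In the 14 SMAD4-expressing libraries, likeness was taken over 10721 genes. EPCAM was most like the copper transporter gene ATP7B (r = 0.83), JAM3 (0.82) and RNF170 (0.81). F3 was most like COX5A (0.91), the actin regulator ENAH (0.90) and TGFB2 (0.87), which encodes a transforming growth factor beta ligand. By Spearman's rho COX5A, ENAH and TGFB2 had 0.80, 0.84 and 0.64 with F3. MET was most like the transferrin receptor gene TFRC (0.88), GANAB (0.86) and CPLANE1 (0.86), and CD276 most like SELENOO (0.85), RANBP2 (0.83) and WBP1L (0.81).

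The labels themselves did not separate the antigens. Between the 14 libraries labelled Panc-1 and the 12 labelled BxPC3, edgeR called none of the 8 antigens tested and 0% of 16008 genes. Before adjustment, 367 genes had an unadjusted p under 0.05, and by DESeq2 1 gene was called. For MET the labels spanned 91.5 to 295 TPM (Panc-1) and 86.3 to 288 TPM (BxPC3). The log2 fold changes of the 8 lay between -0.49 for NECTIN4, which was 0.10 without library 21, and 1.72 for CEACAM5, and the 95% interval for EPCAM ran from -1.36 to 1.79. The comparison mixes both SMAD4 groups within each label, and its intervals are accordingly wide.

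Within the SMAD4 groups the labels were also compared. Among the 12 SMAD4-low libraries, edgeR called none of the 8 antigens and 0% of 16124 genes (1840 had an unadjusted p under 0.05, and 11 were called by DESeq2). EPCAM differed by a log2 fold change of 0.00 (95% interval -0.37 to 0.37), MET by -0.03 (-0.34 to 0.27) and CD276 by 0.04 (-0.23 to 0.31). NECTIN4 was at 3.93 to 14.4 TPM with the label BxPC3 and at 2.12 to 6.08 TPM with the label Panc-1, a log2 fold change of -0.72 (SE 0.313) that did not pass the adjustment (edgeR adjusted p = 0.421) and was -0.33 without library 21. CEACAM5 had a log2 fold change of 1.49 (SE 1.11, edgeR adjusted p = 0.613) that was -0.45 without library 5, and CEACAM6 one of 1.07 that was -0.07 without it. Among the 14 SMAD4-expressing libraries 5 antigens could be tested. None was called, with 0% of 15161 genes called, 700 at an unadjusted p under 0.05 and none by DESeq2. F3 was at 0.237 to 33.7 TPM with the label BxPC3 and at 6.304 to 15.5 TPM with the label Panc-1.

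The partners and pathway genes of the antigens were followed in lists, each described by its counts beside all genes, of which 20% were higher and 19% lower in the SMAD4-low libraries, with a median log2 fold change of -0.01. Of 12 tested genes that bind or process EPCAM, 4 were called higher, 2 lower and 6 were not called (median 0.31). SPINT1, an inhibitor of membrane serine proteases, was at 296 to 519 against 9.13 to 60.2 TPM. CD44, a hyaluronan receptor, and ADAM17, a sheddase, were called lower, with log2 fold changes of -1.11 and -1.08, and both overlapped between the groups.

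Of 11 tested relatives of PSCA in the LY6 and uPAR family, 7 were called higher and 2 lower (median 2.47). LYPD3 was at 19.5 to 69.0 against 0.0693 to 1.23 TPM and LY6D at 0.940 to 23.9 against 0 to 0.402 TPM. The 2 lower genes were LYNX1, at 1.05 to 9.002 against 9.261 to 44.5 TPM, and GPIHBP1, which was at 0 in all 12 SMAD4-low libraries and at 1.38 to 9.66 TPM in the others. The direction of PSCA in the unfiltered test was thus that of 2 of the 9 relatives called. Of the 5 subunits of the transamidase that attaches GPI anchors, PIGU alone was called, at 49.6 to 87.3 against 27.2 to 40.9 TPM, with a log2 fold change of 1.00 at the threshold.

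Among 6 tested nectins and their partners, 3 were called higher and none lower (median 1.16). NECTIN1 was at 235 to 498 against 2.02 to 12.6 TPM (log2 fold change 5.70, SE 0.228, edgeR adjusted p = 9.94e-19) and NECTIN3 at 6.43 to 21.1 against 0.346 to 2.82 TPM. NECTIN1 was thus far more abundant than NECTIN4 in the SMAD4-low libraries, with medians of 360 and 5.10 TPM. PVR, the poliovirus receptor of the same family, was the other gene called.

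In the tissue factor pathway 3 of 10 tested genes were called higher and 4 lower (median -0.19). TFPI was not called, at 36.3 to 91.2 against 24.4 to 180 TPM (log2 fold change -0.48). TFPI2 was higher together with F3, at 10.7 to 73.3 against 0 to 1.396 TPM. So was THBD, which encodes thrombomodulin, at 96.0 to 237 against 0.290 to 7.62 TPM. The protease-activated receptor genes F2R and F2RL1 went the other way. F2R was at 6.47 to 22.2 against 37.3 to 171 TPM and F2RL1 at 20.7 to 56.4 against 121 to 544 TPM. The tested genes of this pathway therefore did not share 1 direction.

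In the MET pathway 6 of 12 tested genes were called higher and 1 lower (median 1.58). ST14, which encodes matriptase, a protease that activates hepatocyte growth factor, was at 116 to 246 against 0.0927 to 1.495 TPM (log2 fold change 8.24, SE 0.344, edgeR adjusted p = 2.87e-18). SPINT1, its inhibitor, is given above. CBL, the ubiquitin ligase that removes activated MET, was lower, at 6.258 to 14.996 against 17.1 to 40.1 TPM. HGF, the ligand gene, was at no more than 0.0798 TPM in the SMAD4-low libraries and 2.69 TPM in the others and was not tested.

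Of the other B7 genes 6 were tested, 3 were called higher and 2 lower (median 2.32). CD86, a costimulatory ligand, was at 0.874 to 7.02 TPM in the SMAD4-low libraries and at 0 in all others, and PDCD1LG2, a ligand of PD-1, at 0.788 to 4.84 against 0 to 0.0565 TPM. ICOSLG was at 0.413 to 1.12 against 2.85 to 9.78 TPM, and VSIR was at 0 in all SMAD4-low libraries and at 7.25 to 24.1 TPM in the others. CD276 stood apart from these relatives in level, since its lowest library, at 26.33 TPM, was above the highest of each of these 4.

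A wider list of 57 other antibody targets placed the 9 in context. Of 45 tested, 21 were called higher in the SMAD4-low libraries, 14 lower and 10 were not called (median 0.86). ITGB6, an integrin subunit, was at 12.6 to 34.05 against 0.0493 to 0.480 TPM (log2 fold change 6.96, SE 0.292, edgeR adjusted p = 3.19e-18). The SMAD4-expressing libraries had antigens of their own. CD70, a ligand of the tumor necrosis factor family, was at 141 to 642 TPM there against 0 to 0.432 TPM in the SMAD4-low libraries, and DLL3, an inhibitory Notch ligand, at 104 to 209 against 0 to 0.383 TPM. CD70 and DLL3 thus lay opposite to EPCAM and F3.

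The levels of cell type markers moved with the same groups. Among 14 epithelial markers 9 were called higher in the SMAD4-low libraries and 3 lower (median 3.99), and their summed level was 4361 to 8670 TPM against 2526 to 8820 TPM. CDH1, the E-cadherin gene, was at 90.8 to 198 against 0.338 to 7.74 TPM and RAB25 at 40.4 to 85.6 against 0 to 0.334 TPM, whereas the keratin genes KRT8 and KRT18 were lower, with log2 fold changes of -2.18 and -1.56. Of 7 tested mesenchymal markers 4 were lower and 2 higher (median -3.03), with sums of 57.2 to 193 TPM against 3131 to 4576 TPM. VIM, the vimentin gene, was at 1.42 to 73.2 against 3047 to 4527 TPM and SPARC at 0.0313 to 0.746 against 6.47 to 374 TPM, and the transcription factor gene SNAI2 and FN1 went the other way, at 43.8 to 89.5 against 0 to 1.55 TPM and 8.39 to 66.2 against 0.787 to 3.20 TPM. The part of these differences in the antigen results was not tested.

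Markers of other cell types were mostly low, but CD68 was at 42.5 to 141 TPM in the SMAD4-expressing libraries. CD14 and PDGFRA reached 29.1 and 21.9 TPM in the SMAD4-low ones. COL1A1, a fibroblast marker that was not called, was at 8.92 to 26.5 TPM in the SMAD4-low and 2.06 to 38.5 TPM in the SMAD4-expressing libraries. Of 8 fibroblast markers 4 were tested, and 1 was higher (PDGFRA) and 2 lower, with sums of 14.4 to 42.7 against 3.20 to 40.1 TPM. Leukocyte markers summed to 5.95 to 50.7 against 44.6 to 142 TPM, and of the 2 tested CD14 was higher and CD68, a lysosomal protein gene that other cells also express, lower. PTPRC, the pan-leukocyte gene, was at no more than 0.535 TPM in any library and MS4A1 was at 0 in all 26. Endothelial markers summed to 3.35 to 17.5 against 0.439 to 5.39 TPM, and CDH5 was the 1 called of 2 tested, at 1.04 to 13.6 against 0 to 0.0427 TPM.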

How the data were processed

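Poly-A mRNA of 26 SCDCLs was sequenced once each from both ends, with the strand kept. The authors assigned reads to human transcripts (Ensembl release 103, GRCh38) with kallisto 0.46.1 and deposited, per gene and library, TPM and estimated counts. The deposited estimated counts were made from TPM and mean transcript length, scaled to the library total, and are not normalized between libraries. Of 30 repeat quantifications (estimated counts from redrawn reads) deposited for each library, 4 were used for the error of counting and assignment, and 676 columns were not used. Of 41078 genes, 36315 were matched by identifier to a symbol in GENCODE 44.

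Groups were the labelled line and SMAD4 under 1 TPM (12 libraries) or not (14). The second division was made from the data, and SMAD4 was left out of the counts of genes in the SMAD4 comparison. The members, the division and the gene lists were chosen with earlier results of these data known. Estimated counts were rounded and tested with edgeR 4.0.16 (TMM, filterByExpr, quasi-likelihood, Benjamini-Hochberg over all genes) in R 4.3.3. The standard error was taken as the log2 fold change divided by the square root of F and is approximate, and 95% intervals use 1.96 SE. Named genes were the 9 antigens, SMAD4, CDH1 and VIM, the up to 2 genes per list and direction with the largest called fold change and a median of at least 1 TPM, and the 3 genes most like each antigen. Genes named outside this rule (PVR, HGF, TFPI, COL1A1, PTPRC and MS4A1) were chosen after their values were seen. Some genes that the rule names are not reported here.

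Alternatives were DESeq2 1.42.0, limma 3.58.1 on log2(TPM + 1) or log2(TPM + 0.1), other size factors, no filter or at least 5 CPM, the label or SMAD4 group as a covariate, each label alone, SMAD4 under 10 TPM and leaving out each library. Totals of 27035724 to 34945608 estimated counts limit precision for genes of few counts. On simulated data for the SMAD4 comparison (16008 genes) the test recovered 99% of genes changed 4-fold and called 0 unchanged genes. For the comparison of labels over all libraries (16008 genes) it recovered 81% of genes changed 4-fold and 84% of those changed 8-fold, with 0 unchanged genes called. Between the labels it recovered 98% of genes changed 4-fold within the SMAD4-low libraries (16124 genes, 0 unchanged called) and 99% within the others (15161 genes, 1 unchanged called). These percentages are over the genes that were changed, a small part of those simulated, whereas 6236 of 16007 genes were called in the SMAD4 comparison. Every simulated gene was given the same dispersion, a setting for its spread between libraries. The percentages and the counts of unchanged genes called hold for that setting only. Recovery at the spread of each antigen was not tested. Among the antigens tested, the SE of the label difference ran from 0.14 (CD276) to 1.11 (CEACAM5) in the SMAD4-low libraries. In the SMAD4-expressing libraries it ran from 0.14 (CD276) to 0.74 (F3). Figures and summaries used Python 3.11.15 with pandas 2.3.3. The authors' proteomic data and drug response were not analysed here.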

Additional observations from a re-analysis of the deposited data

Results flagged for a closer look

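Among 23 sets of 5 or 7 libraries of 1 label and SMAD4 group in which an antigen had a median of at least 1 TPM, 6 had a library far from the rest by Dixon's criterion, which flags about 1 set in 20 by chance. The sets are not independent, since CEACAM5 and CEACAM6 vary together and use the same libraries. Library 25, labelled BxPC3 with SMAD4 under 1 TPM, had 25.26 TPM of CEACAM5 where the next library had 6.044, and 25.12 TPM of CEACAM6 where the next had 6.859. Library 5, labelled Panc-1 in the same SMAD4 group, had 114.1 TPM of CEACAM5 where the next had 18.34, and 66.85 TPM of CEACAM6 where the next had 19.59. The 2 genes therefore stood out in the same libraries under both labels.

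Library 17, labelled BxPC3 with SMAD4 of 1 TPM or more, had 33.71 TPM of F3 where the next had 10.71. Library 20, of the same label and group, had 207.5 TPM of MET where the next had 135.6. No other antigen was marked in either library.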

How the results depend on the processing

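The 5 antigens called in the SMAD4 comparison stayed 5 with each of the 26 libraries left out. The count of genes called then ran from 6180 to 6360, against 6236 of 16007 tested with all libraries. The filter also set how many genes were tested. No filter on low counts gave 10222 of 29051 genes called. A filter of at least 5 CPM gave 3899 of 11794 genes and 3 antigens, since only 5 could be tested. Without a filter 6 of 9 antigens were called, PSCA being the addition. On the log2(TPM + 1) scale the fold changes of low genes shrank, to 2.84 for CEACAM5, 2.80 for CEACAM6 and 2.60 for NECTIN4. DESeq2 called 1 gene between the labels and 11 between the labels in the SMAD4-low libraries, where edgeR called 0 in both, and no antigen was among the calls. The SD of EPCAM in the SMAD4-low libraries was 0.33 on log2(CPM + 1). With the scaled median absolute deviation the spread in that group was 0.90 for CEACAM5, 0.39 for NECTIN4, 0.33 for F3, 0.15 for MET and 0.11 for CD276, and in the SMAD4-expressing libraries 0.77 for EPCAM, 0.68 for F3 and 0.22 for MET, so that EPCAM came before F3, where the SD of F3 on log2(TPM + 0.1) was 1.91. The cause of these shifts was not tested. No paired analysis was possible because library numbers are not shared between the labels or groups.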
